A study of Mus musculus with 6 samples.

Results

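The genes described here are 42 regulators and effectors of the cell cycle and of DNA replication: the cyclins and cyclin-dependent kinases (CDKs), the E2F transcription factors, the origin licensing factors and replicative helicase, the mitotic kinases and spindle checkpoint, and the CDK inhibitors and pocket proteins. Every probe of a mouse Illumina bead array whose annotated symbol, current or older, named one of them was taken. No measured value entered that choice of probes, but the genes were listed with earlier results of these data known. Of the 42 genes, 40 had at least 1 probe, and these held 86 of the 45281 probes on the array. No probe of Ccnb1 (cyclin B1) or Mki67 (the proliferation antigen Ki-67) was found in the annotation used. A probe was kept where its detection p-value, which sets its signal against the background beads, was under 0.05 on at least 3 of the 6 arrays. That left 67 member probes and 36 genes to test, of 10711 genes tested in all. The probes of Cdk6, Ccnb2, Bub1 and Cdkn1b were not kept, so nothing is said of their direction.

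The arrays measured total RNA of E14 cells, a mouse embryonic stem (ES) cell line of strain 129/Ola, with or without a remaining Lox allele of Lsd1 (gene symbol Kdm1a, a histone demethylase of repressor complexes). The 3 Δ3/Δ3 arrays came from cells with both copies of Lsd1 in the Δ3 form, and the 3 Lox/Δ3 arrays from cells with 1 Lox copy and 1 Δ3 copy. Each comparison below is Δ3/Δ3 against Lox/Δ3, so both genotypes carried at least 1 Δ3 allele, and cells without a Δ3 allele were not analysed here. The samples are described as biological replicates, with nothing on whether clones or cultures were separate, so a p-value here speaks only of the spread among these 6 arrays. All levels are normalized intensities on the log2 scale, a difference of 1 is 2-fold, and an intensity ranks samples for 1 probe but not 1 gene against another.

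In the textbook cycle, D-type cyclins with CDK4 or CDK6 phosphorylate the retinoblastoma (RB) family of pocket proteins, which frees E2F factors to transcribe the genes of S phase. Cyclin E and cyclin A with CDK2 then start replication from origins loaded with the MCM helicase, and cyclin B with CDK1 drives mitosis, which the spindle checkpoint holds until every chromosome is attached. Mouse ES cells are known for a short G1 phase, for pocket proteins kept largely phosphorylated and for low levels of CDK inhibitors.

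The deletion was read first in Kdm1a itself, which measured 10.56, 10.20 and 10.41 on the Δ3/Δ3 arrays and 12.06, 11.76 and 12.01 on the Lox/Δ3 arrays. It fell by 1.56 ± 0.15 (SE) on the log2 scale, 2.94-fold, with an adjusted p of 0.0128 (limma, Benjamini-Hochberg over all tested genes, threshold 0.05). Without any 1 Δ3/Δ3 array the adjusted p of Kdm1a was 0.0744 to 0.0939 (limma). Where its probe lies relative to the deleted stretch was not examined. The arrays detected between 18506 and 19799 probes each. Their correlation over the tested genes lay between 0.977 and 0.990 within a genotype and between 0.966 and 0.985 across genotypes. The 10 ES cell markers listed, among them Pou5f1 and Nanog, were all tested and none passed the threshold, with a summed linear level of 87642 to 88747 in Δ3/Δ3 cells and 91660 to 98258 in Lox/Δ3 cells. Of 10 fibroblast markers, which would trace feeder cells, 3 were tested and summed to 2059 to 2541 in Δ3/Δ3 cells against 1511 to 1671 in Lox/Δ3 cells. Col1a2, Col3a1, Postn, Lum, Dcn, Pdgfrb and S100a4 were not kept, and none of the 3 passed. The 3 differed in sign, with Thy1 at 1.61 (adjusted p 0.0522, limma), Fn1 at 0.23 and Col1a1, the collagen among them, at -0.67. Of 10 primitive endoderm markers, 9 were tested, summing to 4384 to 6422 in Δ3/Δ3 cells and 4341 to 18096 in Lox/Δ3 cells, where the high value was replicate 3. Foxa2 was not kept. Of the 9, 8 were lower in Δ3/Δ3 cells, with a median of -0.51, where 53.6% of all tested genes were lower. The genotypes overlapped on all 9. At an unadjusted p under 0.05 (limma) there was 1, Sox7 at -1.09, beside 18.2% of all tested genes, and 0 passed the threshold. Of 8 trophectoderm markers, 5 were tested and summed to 7491 to 10910 in Δ3/Δ3 cells and 6872 to 10829 in Lox/Δ3 cells; Cdx2, Elf5 and Hand1 were not kept. Bright Krt8 (-0.71), Krt18 (-0.31) and Tfap2c (0.87) carry much of that sum. On Δ3/Δ3 arrays 1 and 3 Tfap2c was its largest term, at 11.94 on both, with Krt8 at 11.08 and 11.09. Eomes (0.44) and Gata3 (0.72) lay on the same side of 0 as Tfap2c. Eomes and Tfap2c did not overlap, where 11.3% of all tested genes were higher without overlap. Of these 5 trophectoderm markers, 3 had an unadjusted p under 0.05 (limma), all higher, beside 18.2% of all tested genes, 9.70% higher. Of the 5, 0 passed the threshold, beside 1.31% of all tested genes. The part of these levels in the results below was not tested. In such bulk RNA, fewer cells in a phase and less RNA per cell cannot be told apart.

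None of the 36 tested cell cycle genes passed the threshold between Δ3/Δ3 and Lox/Δ3 cells, in a comparison that called 140 of 10711 genes, or 1.31%. Of those genes 110 were higher, 1.03%, and 30 were lower, 0.280%. Without any 1 of the Δ3/Δ3 arrays 0 of the 10711 genes passed, with 1551 to 1798 at an unadjusted p under 0.05 (limma). The smallest adjusted p among the cell cycle genes was 0.174, for Cdc25c (limma, Benjamini-Hochberg). Their differences ran from -0.54 for Ccnd2 (cyclin D2) to 0.46 for Cdkn2b (the CDK4/6 inhibitor p15), and 35 of 36 were under 0.5 in size, 97.2% of them, against 88.1% of all tested genes. At an unadjusted p under 0.05 there were 5 members, 13.9%, of which 2 were higher and 3 lower, beside 18.2% of all tested genes, 9.70% higher and 8.47% lower. On 8 members, 22.2%, the arrays of the genotypes did not overlap, with 2 higher and 6 lower, beside 23.8% of all tested genes, 11.3% higher and 12.5% lower. Both shares lie near the background.

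The intervals limit how large a difference could have been missed. The 95% confidence interval lay within 1 log2 unit of 0 on both sides for 34 of the 36 genes, 94.4%, against 88.3% of all tested genes. The exceptions were Ccnd2, whose interval reached -1.06, and Rb1, whose interval reached 1.03. The median standard error was 0.14 for the cell cycle genes and 0.16 for all tested genes. The median SD of a member was 0.14 over the Δ3/Δ3 arrays and 0.15 over the Lox/Δ3 arrays, and that of all tested genes was 0.18 in both.

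**Figure D1:**
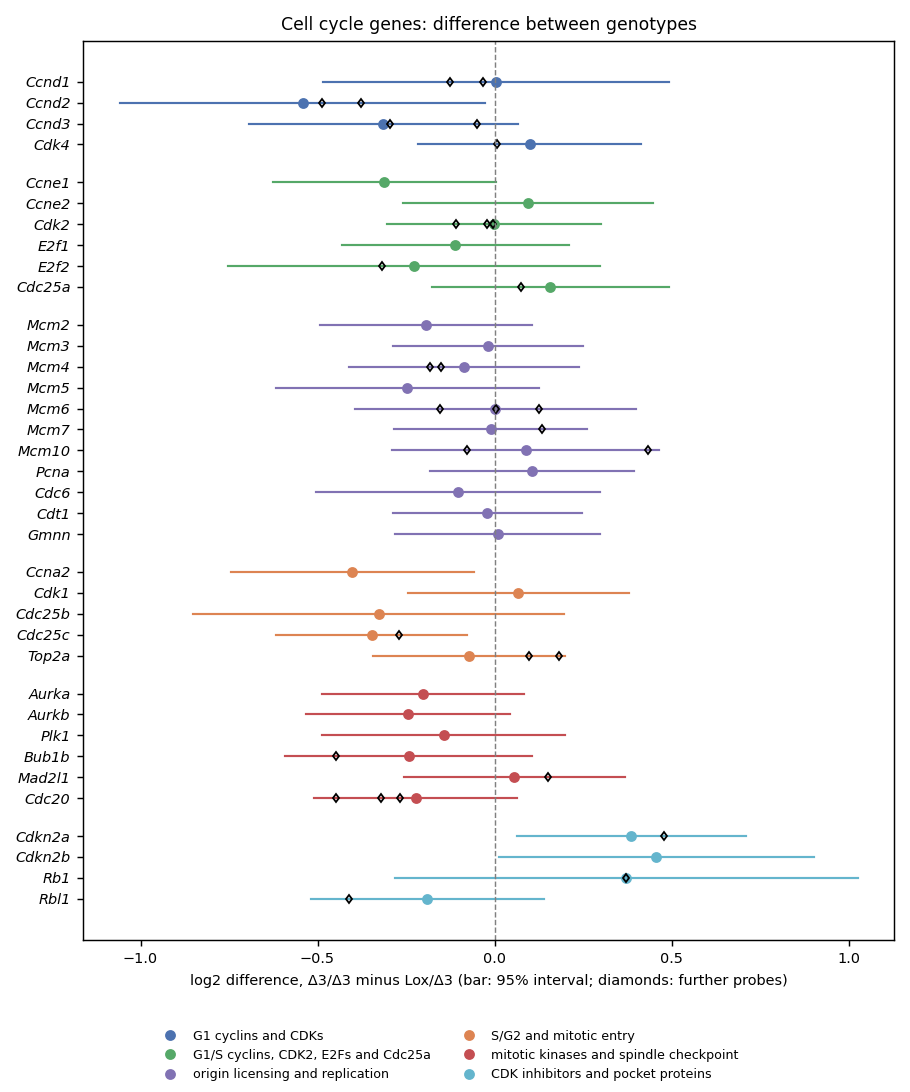
Log2 difference, Δ3/Δ3 minus Lox/Δ3, for each of the 36 tested genes, coloured by phase; circles are the brightest probe of a gene, bars its 95% interval, and diamonds the further kept probes of that gene. No gene passed the threshold; the estimates run from -0.54 for Ccnd2 to 0.46 for Cdkn2b.

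More members were lower than higher in Δ3/Δ3 cells, 23 against 13, which is 63.9% lower where 53.6% of all tested genes were lower. The median difference was -0.080 for the members and -0.025 for all tested genes. The split depended on the scaling of the arrays: 31 of 36 were lower after scaling each array to its median alone, 29 in the authors' own scaled values and 21 after cyclic loess. Of the 36 signs, 19 were the same under every alternative run, and 17 turned under at least 1 of them.

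**Figure D2:**
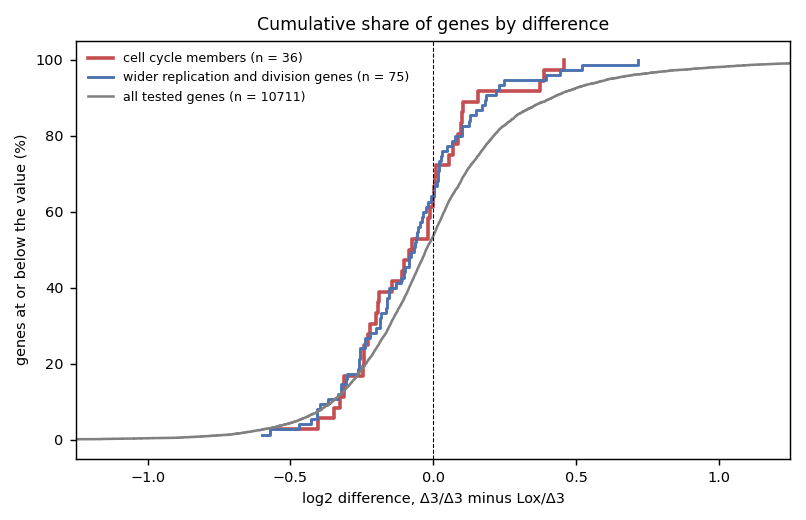
Cumulative share of genes (%) against the log2 difference, Δ3/Δ3 minus Lox/Δ3, for the cell cycle genes, the wider list of replication and division genes and all tested genes. The medians were -0.080, -0.068 and -0.025, and 97.2% of the cell cycle genes and 88.1% of all tested genes lay within 0.5 of 0.

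The D-type cyclins and their kinases were not called in either direction. Ccnd2 measured 7.84, 7.93 and 7.28 in Δ3/Δ3 cells and 8.45, 7.86 and 8.36 in Lox/Δ3 cells, means of 7.68 ± 0.36 and 8.23 ± 0.32 (SD, n = 3 each). The genotypes overlapped, since Lox/Δ3 replicate 2 lay under Δ3/Δ3 replicate 2. The difference was -0.54 ± 0.22 (SE), 1.46-fold, with an interval of -1.06 to -0.03 and an adjusted p of 0.25 (limma). Its other 2 kept probes differed by -0.49 and -0.38, and on the dimmest of them, detected on 1 Δ3/Δ3 and 3 Lox/Δ3 arrays, the genotypes did not overlap.

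Ccnd3 (cyclin D3) measured 12.20, 12.44 and 12.62 in Δ3/Δ3 cells and 12.98, 12.62 and 12.60 in Lox/Δ3 cells, a difference of -0.31 with an interval of -0.69 to 0.07. Its other kept probes gave -0.30 and -0.05. Ccnd1 (cyclin D1) measured 10.95, 11.11 and 10.63 in Δ3/Δ3 cells and 11.09, 11.12 and 10.47 in Lox/Δ3 cells. In both genotypes replicate 3 was the lowest of the Ccnd1 values, and the interval of the difference, -0.48 to 0.49, was nearly centred on 0. Cdk4, the kinase partner of these cyclins, measured 12.01, 12.28 and 12.14 in Δ3/Δ3 cells and 12.13, 12.13 and 11.89 in Lox/Δ3 cells, with an interval of -0.22 to 0.41. Cdk6, the other kinase partner, had 1 probe, detected on 0 arrays.

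At the passage into S phase, Ccne1 (cyclin E1) had the only values that did not overlap. That was 1 of 6 tested genes, 16.7%, beside 23.8% of all tested genes without overlap and 12.5% lower without overlap. Ccne1 measured 9.56, 9.55 and 9.50 in Δ3/Δ3 cells and 10.03, 9.86 and 9.65 in Lox/Δ3 cells, means of 9.54 ± 0.036 and 9.85 ± 0.19 (SD, n = 3 each). All 3 Δ3/Δ3 values lay close together and under the lowest Lox/Δ3 value. The difference was -0.31 ± 0.14 (SE) with an adjusted p of 0.280 (limma). Ccne2 (cyclin E2) lay on the other side of 0, at 0.10, with 7.68, 7.36 and 7.45 in Δ3/Δ3 cells and 7.19, 7.41 and 7.59 in Lox/Δ3 cells.

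Cdk2, the kinase that cyclins E and A activate, had 4 kept probes, and their differences were -0.0012 for the brightest and -0.0040, -0.11 and -0.02 for the others. The brightest measured 11.85, 11.78 and 11.94 in Δ3/Δ3 cells and 11.92, 11.69 and 11.96 in Lox/Δ3 cells, with an interval of -0.30 to 0.30. E2f1 and E2f2, activator members of the E2F family, differed by -0.11 (interval -0.43 to 0.21) and -0.23 (interval -0.75 to 0.30). E2f2 measured 8.52, 8.10 and 8.42 in Δ3/Δ3 cells and 9.06, 8.46 and 8.21 in Lox/Δ3 cells, and without Lox/Δ3 replicate 1 its difference came to 0.013. Cdc25a, the phosphatase that removes inhibitory phosphates from CDK2, differed by 0.16 (interval -0.18 to 0.49), with 0.07 on its other kept probe. The median of the 6 genes was -0.056, and it was 0.0033 without Lox/Δ3 replicate 1.

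The origin licensing and replication genes had the phase median closest to 0. All 11 were tested, 4 were higher and 7 lower in Δ3/Δ3 cells, and their median difference was -0.019. On the brightest probe of each gene the arrays of the genotypes overlapped, where 23.8% of all tested genes did not overlap. Every interval lay within 1 log2 unit of 0, as did 88.3% of those of all tested genes. Dimmer probes of Mcm4 (-0.18), Mcm7 (0.14) and Mcm10 (0.43) did not overlap, on both sides of 0. None of these passed the threshold, beside 1.15% of all kept probes. The 6 subunits of the MCM2-7 helicase, the motor that unwinds DNA at the fork, had differences of -0.19 (Mcm2), -0.019 (Mcm3), -0.086 (Mcm4), -0.25 (Mcm5), 0.0024 (Mcm6) and -0.011 (Mcm7). Mcm5, the farthest from 0, measured 13.22, 12.69 and 13.01 in Δ3/Δ3 cells and 13.34, 13.20 and 13.12 in Lox/Δ3 cells, with an interval of -0.62 to 0.12. Mcm2 measured 11.72, 11.57 and 11.65 in Δ3/Δ3 cells and 11.98, 11.85 and 11.69 in Lox/Δ3 cells. In both Mcm2 and Mcm5 a single Δ3/Δ3 array lay within the Lox/Δ3 values. Of the 6 subunits, Mcm3 and Mcm7 had the narrowest intervals, -0.29 to 0.25 and -0.28 to 0.26.

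The loaders of the helicase were as close. Cdc6 and Cdt1, which load MCM2-7 onto origins in G1, differed by -0.10 (interval -0.51 to 0.30) and -0.020 (interval -0.29 to 0.25). Gmnn encodes geminin, the inhibitor of Cdt1, and differed by 0.0086 (interval -0.28 to 0.30). Pcna, the sliding clamp of the replicative polymerases, measured 9.62, 9.63 and 9.58 in Δ3/Δ3 cells and 9.66, 9.43 and 9.42 in Lox/Δ3 cells, a difference of 0.11 with an interval of -0.18 to 0.39. Mcm10, which joins the helicase when origins fire, had 3 kept probes that disagreed. The brightest gave 0.088, the next -0.08 and the dimmest 0.43, with 6.09, 6.0 and 6.0 in Δ3/Δ3 cells and 5.91, 5.66 and 5.22 in Lox/Δ3 cells. That dim probe was detected on 3 Δ3/Δ3 and 2 Lox/Δ3 arrays, and its adjusted p over all kept probes was 0.280 (limma).

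Most of these genes are textbook E2F targets, and their promoters were read for the E2F core, taken as TTCCCGC with C or G as the third and as the fourth letter, on either strand. The RefSeq promoter table, of assembly GRCm38.p6, gives 250 bases before and 50 after each annotated start, and it matched 33 of the 42 genes with 37 promoters. The table gave no match for Ccnd1, Ccnd2, Ccne2, Mcm4, Gmnn, Ccna2, Cdc25c, Aurkb and Rb1. The E2F core stood in 15 of the 37, or 40.5%, against 9.57% of all 32851 promoters of the table. In the licensing and replication group it stood in 7 of 10 promoters, those of Cdc6, Cdt1, Mcm3, Mcm5, Mcm6 and Mcm7, where Mcm7 has more than 1 annotated start. In the mitotic group it stood in 0 of 6. The median GC content was 59.0% for the members' promoters and 52.7% for all promoters, and its part in these shares was not tested. The windows below, 30 bases each and written 5′ to 3′ along the gene's own strand, show the core in capitals in 5 genes whose brightest probes overlapped between the genotypes.
Mcm5, chr8:75109346-75109375, plus strand, core 152 bases before the start: cgccaagaactTTCGCGCcaaaacgtccag
Mcm6, chr1:128359733-128359762, minus strand, core 46 bases before the start: attggacgggtTTGGCGCgaagtagctcag
Mcm7, chr5:138171848-138171877, minus strand, core beginning at base 18 of the transcript: ggtgacgacgtTTCGCGCcaatttcggttg
Cdc6, chr11:98908002-98908031, plus strand, core in reverse 138 bases before the start: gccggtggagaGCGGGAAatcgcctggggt
Cdc25a, chr9:109875502-109875531, plus strand, core 66 bases before the start: gtgaattccgtTTGGCGCcaactaggaaag
In the Mcm5, Mcm6, Mcm7 and Cdc25a windows a further core overlaps the one shown, on the other strand, and in the Mcm7 window a CCAAT box overlaps both. A match is a run of letters and not a measured binding site. The 12 tested members with the core had a median difference of -0.015 and 8 were lower. The 15 without it had a median of -0.14 and 10 were lower. Over all tested genes with a promoter the medians were -0.042 for the 1698 genes with the core and -0.024 for the 6983 without it. Of these genes, 58.0% of those with the core were lower, against 53.3% of those without it.

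The genes of G2 and of mitosis held 5 of the 6 members that were lower in Δ3/Δ3 cells without overlap: Ccna2, Cdc25c, Aurka, Aurkb and Cdc20. That was 2 of 5 tested S/G2 genes and 3 of 6 tested mitotic genes, beside 12.5% of all tested genes. None of these 5 members passed the threshold. The S/G2 and mitotic entry group had 5 tested genes, 4 of them lower, with a median of -0.33. That median was the value of Cdc25b, whose arrays overlapped between the genotypes. Cdc25b and Ccna2 were dim, with detection p-values as high as 0.026. Of the other genes of the group, Cdc25c lay at -0.35, Top2a at -0.073 and Cdk1 at 0.067. The group of mitotic kinases and spindle checkpoint had 6, of which 5 were lower, with a median of -0.21. Both medians were below 0 under every scaling tried, but so were those of the G1, G1/S and licensing groups. With any 1 array left out the medians ran from -0.38 to -0.14 for S/G2 and from -0.24 to -0.17 for the mitotic group. The median of the D-type cyclins and their kinases also stayed below 0, at -0.29 to -0.045. Those of the G1/S and licensing groups reached 0.0033 and 0.0030.

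Cdc25c, the phosphatase that activates CDK1 at the entry to mitosis, had the smallest adjusted p of the 36. It measured 8.63, 8.73 and 8.66 in Δ3/Δ3 cells and 9.09, 9.01 and 8.96 in Lox/Δ3 cells, means of 8.67 ± 0.055 and 9.02 ± 0.067 (SD, n = 3 each). All 3 Δ3/Δ3 values were under all 3 Lox/Δ3 values. The difference was -0.35 ± 0.12 (SE), 1.27-fold, with an interval of -0.62 to -0.08 and an adjusted p of 0.174 (limma). A further probe gave 8.70, 8.64 and 8.68 in Δ3/Δ3 cells against 9.05, 8.96 and 8.83 in Lox/Δ3 cells, again without overlap, at -0.27. Probes of 1 gene read the same RNA and are not independent replicates.

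Ccna2 (cyclin A2) measured 5.97, 5.65 and 5.66 in Δ3/Δ3 cells and 6.35, 6.04 and 6.10 in Lox/Δ3 cells, means of 5.76 ± 0.18 and 6.16 ± 0.16 (SD, n = 3 each). The values did not overlap, and the gap between the highest Δ3/Δ3 and the lowest Lox/Δ3 array was small beside the spread within each genotype. The difference was -0.40 ± 0.15 (SE), 1.32-fold, with an interval of -0.75 to -0.06 and an adjusted p of 0.208 (limma). Cdc25b, a further CDK1-activating phosphatase, measured 5.84, 5.63 and 6.32 in Δ3/Δ3 cells and 6.64, 6.11 and 6.02 in Lox/Δ3 cells, and its interval was -0.85 to 0.20. Cdk1, the kinase of mitotic entry itself, lay at 0.067 (interval -0.24 to 0.38), with 12.33, 12.65 and 12.55 in Δ3/Δ3 cells and 12.37, 12.41 and 12.55 in Lox/Δ3 cells. Top2a, the topoisomerase that untangles sister chromatids, had 3 kept probes that disagreed in sign, at -0.073 for the brightest and 0.18 and 0.098 for the others.

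Cdc20, the activator of the anaphase-promoting complex that the spindle checkpoint restrains, had 4 kept probes, and on each of them all 3 Δ3/Δ3 values lay under all 3 Lox/Δ3 values. The brightest measured 12.47, 12.43 and 12.27 in Δ3/Δ3 cells and 12.71, 12.56 and 12.57 in Lox/Δ3 cells. Its difference was -0.22 ± 0.12 (SE), with an interval of -0.51 to 0.06 and an adjusted p of 0.400 (limma). The other 3 probes gave -0.32, -0.27 and -0.45, with adjusted p-values over all kept probes of 0.289, 0.368 and 0.176 (limma), so the probes shared a sign while none passed.

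Bub1b encodes BubR1, a checkpoint protein that binds Cdc20. Its brightest probe measured 11.73, 11.90 and 11.93 in Δ3/Δ3 cells and 12.07, 11.88 and 12.34 in Lox/Δ3 cells, overlapping, at -0.24. Its other probe measured 9.94, 10.08 and 10.08 in Δ3/Δ3 cells and 10.37, 10.51 and 10.58 in Lox/Δ3 cells. These values did not overlap, and the difference was -0.45 ± 0.13 (SE), 1.37-fold. Its adjusted p of 0.130 (limma, over the 19652 kept probes, of which 1.15% were called) was the smallest of the 67 member probes. Bub1, the related checkpoint kinase, had 2 probes, neither detected on any array.

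**Figure D3:**
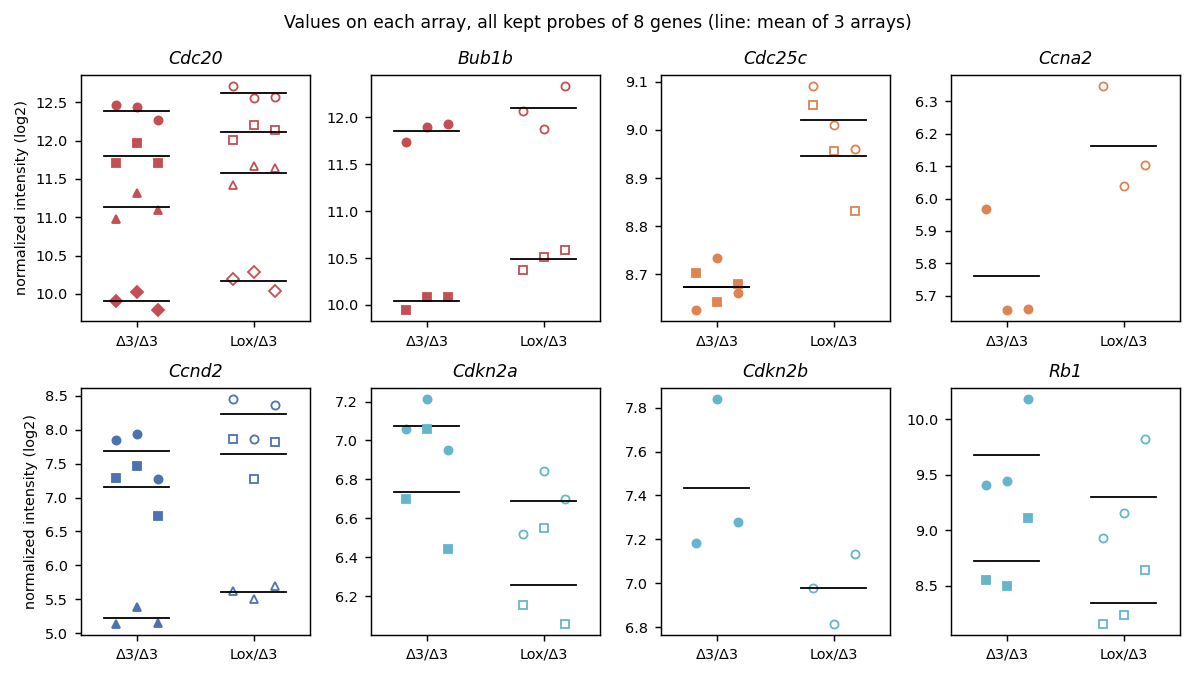
Normalized intensity (log2) on each array for every kept probe of 8 genes, Δ3/Δ3 as filled and Lox/Δ3 as open symbols, 1 marker shape per probe, with lines at the mean of 3 arrays; the intensity axis differs between panels. All 4 Cdc20 probes and both Cdc25c probes separate the genotypes, the Ccnd2 and Rb1 brightest probes do not, and none of these probes passed the threshold.

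Aurkb, the kinase of the chromosomal passenger complex, measured 10.33, 10.42 and 10.53 in Δ3/Δ3 cells and 10.68, 10.57 and 10.77 in Lox/Δ3 cells. Aurka, the spindle pole kinase, measured 11.43, 11.21 and 11.22 in Δ3/Δ3 cells and 11.54, 11.44 and 11.49 in Lox/Δ3 cells. Neither overlapped, although in Aurka the highest Δ3/Δ3 value nearly reached the lowest Lox/Δ3 value. The differences were -0.24 (interval -0.53 to 0.05) and -0.20 (interval -0.49 to 0.08). Plk1, a kinase of mitotic entry and spindle assembly, differed by -0.14 (interval -0.49 to 0.20), and its Δ3/Δ3 replicates 1 and 2 lay within the Lox/Δ3 values. Mad2l1 (the checkpoint protein Mad2) stood on the other side of 0 at 0.056, with 0.15 on its further probe.

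**Figure D4:**
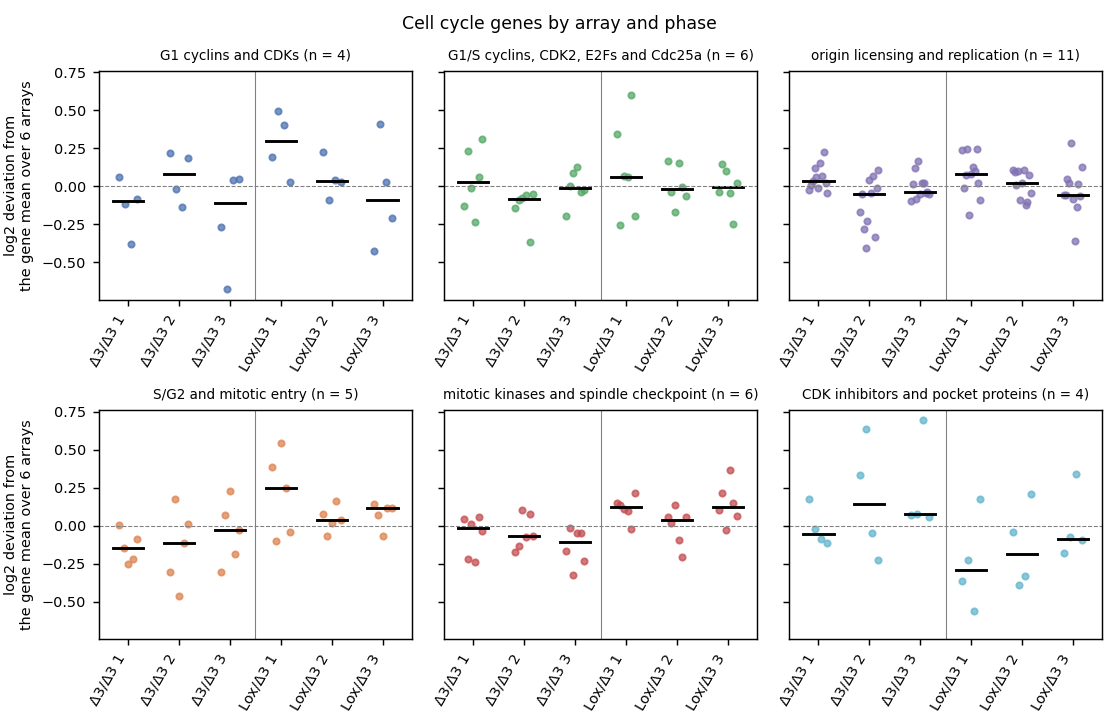
Log2 deviation of each gene from its own mean over the 6 arrays, by array and phase group; points are genes and black lines the median of the group on that array. In the mitotic panel the 3 Δ3/Δ3 medians are -0.013, -0.071 and -0.11 and the 3 Lox/Δ3 medians are 0.12, 0.037 and 0.13.

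On the arrays, the median deviation of the mitotic genes from their own means was -0.013, -0.071 and -0.11 in the Δ3/Δ3 samples and 0.12, 0.037 and 0.13 in the Lox/Δ3 samples. For the S/G2 genes it was -0.14, -0.11 and -0.032 in the Δ3/Δ3 samples and 0.24, 0.039 and 0.11 in the Lox/Δ3 samples. In both groups every Δ3/Δ3 median was below every Lox/Δ3 median. That order is not particular to them, since the medians over all tested genes had it too, at -0.017, -0.0096 and -0.0058 in the Δ3/Δ3 samples and 0.020, 0.0065 and 0.00035 in the Lox/Δ3 samples, with smaller deviations. The licensing genes did not have it, with 0.032, -0.053 and -0.037 in the Δ3/Δ3 samples and 0.080, 0.023 and -0.055 in the Lox/Δ3 samples. Lox/Δ3 replicate 1 held the highest value of 14 of the 36 cell cycle genes, where it held the highest of 23.5% of all tested genes. Without that array the S/G2 median was -0.14 and 0 members had an unadjusted p under 0.05 (limma), beside 12.6% of all tested genes at that setting.

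Genes expressed in G2 and mitosis are known to carry the cell cycle homology region (CHR), a short promoter element bound by the MuvB complexes, and nearby CCAAT boxes bound by NF-Y. The CHR was searched as TTTGAA or TTCGAA and the NF-Y box as CCAAT, on both strands. The CHR letters stood in 14 of the 37 member promoters, 37.8%, against 19.2% of all promoters, and CCAAT in 26, 70.3%, against 37.4%. By phase, the CHR stood in 5 of 6 promoters of the S/G2 group and 5 of 6 of the mitotic group, but in 2 of 10 of the licensing group. These promoters are not all those of tested genes. They include Ccnb1, Ccnb2, Mki67 and Bub1, which were not tested. Ccna2, Cdc25c and Aurkb, which were lower in Δ3/Δ3 cells without overlap, had no matched promoter. The windows below show it in capitals in 4 mitotic genes that were lower in Δ3/Δ3 cells without passing the threshold, and in Cdk1, which stood near 0.
Cdc20, chr4:118437344-118437373, minus strand, element 18 bases before the start: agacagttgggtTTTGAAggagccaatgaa
Aurka, chr2:172370521-172370550, minus strand, element beginning at base 33 of the transcript: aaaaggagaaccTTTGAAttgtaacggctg
Plk1, chr7:122159453-122159482, plus strand, element beginning at base 31 of the transcript: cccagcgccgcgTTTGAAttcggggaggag
Bub1b, chr2:118598011-118598040, plus strand, element 188 bases before the start: tctctccctgggTTCGAAggcttgtcttag
Cdk1, chr10:69352910-69352939, minus strand, element 15 bases before the start: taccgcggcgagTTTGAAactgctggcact
The Cdc20 window also holds a CCAAT box next to the CHR. Tested members with the CHR numbered 11, of which 9 were lower, with a median difference of -0.19, and the 16 without it included 9 lower ones and had a median of -0.010. Among all 1411 tested genes with the CHR in their promoter the median was -0.028 and 53.9% were lower, against -0.027 and 54.2% of the 7270 without it. Among these 8681 tested genes with a matched promoter the letters did not go with a lower value.

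**Figure D5:**
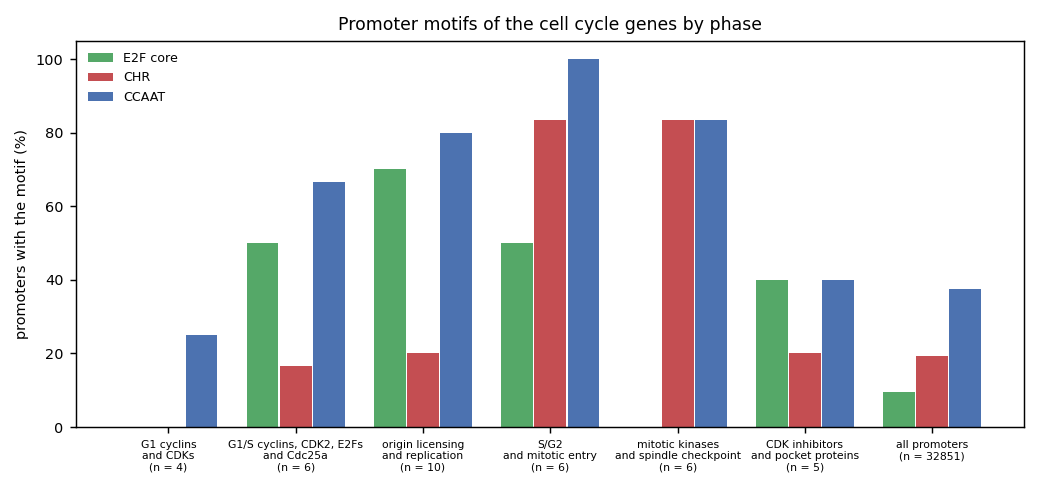
Share of promoters (%) with the E2F core, the CHR and the CCAAT box, for each phase group of the cell cycle genes and for all 32851 promoters; n is the number of promoters, and an absent bar is a share of 0. The CHR stands in 83.3% of the promoters of the S/G2 and the mitotic groups and in 19.2% of all promoters, and the E2F core in 70.0% of the licensing group and 9.57% of all promoters.

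The CDK inhibitors and pocket proteins had 4 tested genes, 3 of them higher in Δ3/Δ3 cells, with a median difference of 0.38. Cdkn2a and Cdkn2b, neighbouring genes of the Ink4 locus, were the 2 of 36 members that were higher without overlap, and neither passed the threshold. Of all tested genes 11.3% were higher without overlap. Cdkn2a was read by a probe annotated to the transcript of p19Arf, the protein that stabilises p53. It measured 7.06, 7.21 and 6.95 in Δ3/Δ3 cells and 6.52, 6.84 and 6.70 in Lox/Δ3 cells, means of 7.07 ± 0.13 and 6.69 ± 0.16 (SD, n = 3 each). The difference was 0.39 ± 0.14 (SE), 1.31-fold, with an interval of 0.06 to 0.71 and an adjusted p of 0.200 (limma). A further probe of that transcript gave 6.70, 7.06 and 6.45 in Δ3/Δ3 cells and 6.16, 6.55 and 6.06 in Lox/Δ3 cells, overlapping, at 0.48. The probe annotated to the p16Ink4a transcript, the CDK4/6 inhibitor of the same gene, was detected on no array.

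Cdkn2b measured 7.18, 7.84 and 7.28 in Δ3/Δ3 cells and 6.98, 6.82 and 7.13 in Lox/Δ3 cells, means of 7.43 ± 0.35 and 6.98 ± 0.16 (SD, n = 3 each). The lowest Δ3/Δ3 value stood just above the highest Lox/Δ3 value, and Δ3/Δ3 replicate 2 stood well above the other arrays. The difference was 0.46 ± 0.19 (SE), 1.37-fold, with an interval of 0.01 to 0.90 and an adjusted p of 0.262 (limma), and without Δ3/Δ3 replicate 2 it was 0.25. Cdkn1b (p27, an inhibitor of CDK2 complexes) had 3 probes, none detected on any array.

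Rb1, the retinoblastoma protein itself, measured 9.40, 9.44 and 10.18 in Δ3/Δ3 cells and 8.93, 9.16 and 9.83 in Lox/Δ3 cells. In both genotypes replicate 3 was the highest, the values overlapped, and the difference of 0.37 had a wide interval of -0.28 to 1.03. Its second probe gave 0.37 as well. Rbl1 (the pocket protein p107, which represses E2F targets with E2F4 and E2F5) differed by -0.19, with an interval of -0.52 to 0.14. Its dimmer probe gave -0.41 without overlap, with 5.45, 5.69 and 5.53 in Δ3/Δ3 cells against 6.07, 5.76 and 6.07 in Lox/Δ3 cells, and an adjusted p of 0.203 (limma).

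Over the 19 members with more than 1 kept probe there were 31 further probes. Of these, 24 lay on the same side of 0 as the brightest probe of their gene and 28 were within 0.25 log2 units of it. The widest gap was 0.35, for Mcm10. Of the 31 probes, 0 passed the threshold, beside 1.15% of all kept probes, and 7, or 22.6%, had an unadjusted p under 0.05 (limma), beside 16.4% of all kept probes.

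Other genes of the pathway were read in the same comparison. A wider list of 86 genes of replication and division was written with earlier results of these data known, and 75 of them were tested. Among these, 0 passed the threshold, beside 1.31% of all tested genes. At an unadjusted p under 0.05 there were 7, or 9.33% (limma), beside 18.2% of all tested genes. Of the 75, 27 were higher and 48 lower in Δ3/Δ3 cells, with a median difference of -0.068, and 19, or 25.3%, did not overlap, 4 higher and 15 lower, beside 23.8% of all tested genes, 11.3% higher and 12.5% lower. The 13 genes of origin recognition and firing had a median of -0.036, with Gins2 of the helicase complex at -0.19 and Orc3 of the origin recognition complex at -0.16. The 20 fork and nucleotide genes had a median of -0.072. Tk1, the thymidine kinase of S phase, measured 9.82, 10.44 and 10.09 in Δ3/Δ3 cells and 10.80, 10.56 and 10.79 in Lox/Δ3 cells. The Tk1 genotypes did not overlap, and the difference was -0.60 ± 0.18 (SE) with an adjusted p of 0.131 (limma). Pola2, a subunit of the polymerase that primes DNA synthesis, differed by -0.47 with an adjusted p of 0.171 (limma).

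The 11 transcription factors of the cycle had a median of -0.17, with the E2F partners Tfdp2 at 0.52 and Tfdp1 at -0.41, on opposite sides of 0 and with adjusted p-values of 0.127 and 0.230 (limma). The 11 further CDK regulators had a median of -0.079. Cdkn1a, the CDK inhibitor p21, came nearest to the threshold of the 75. It measured 11.45, 11.34 and 11.25 in Δ3/Δ3 cells and 10.24, 10.83 and 10.82 in Lox/Δ3 cells, without overlap. The difference was 0.72 ± 0.18 (SE) with an adjusted p of 0.0954 (limma). Ccnf (cyclin F) differed by -0.57 with an adjusted p of 0.358 (limma). The 20 kinetochore and spindle genes had a median of -0.093, and 6 of them, 30%, did not overlap, all lower in Δ3/Δ3 cells, beside 23.8% of all tested genes without overlap and 12.5% lower. Cenpf, a kinetochore protein of G2 and mitosis, differed by -0.41 and Mad1l1, the partner of Mad2, by -0.37, with adjusted p-values of 0.185 and 0.209 (limma).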

How the data were processed

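Genotype labels set the grouping of the 6 arrays. RNA was extracted with Trizol and labelled with an Illumina TotalPrep kit, per the labels' protocols. The authors deposited non-normalized linear intensity values with 1 detection p-value per probe and array, and their value table of the series holds the same intensity values scaled to a common median. The scanner software is not given in the sources used here. Probes were named from the platform annotation, updated through RefSeq (GRCm38.p6).

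Signals were corrected with limma's nec (limma 3.58.1, R 4.3.3; offset 16, background from the detection p-values), taken to log2 and quantile normalized. Probes with detection p under 0.05 on at least 3 of 6 arrays were kept, and the brightest stood for its gene. Genotypes were compared with limma (lmFit, eBayes), two-sided, with Benjamini-Hochberg adjustment over all 10711 genes, threshold 0.05; every kept probe was also fitted alone. The fit was tested on simulated data, where it called few of the genes changed by 1.25-fold or 1.5-fold. It called most of those changed by 2-fold or 4-fold. A gene that was not called may therefore still differ by 1.5-fold or less. The number of arrays limits the precision. Probe sequences were not used, so cross-hybridisation was not examined.

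The members and lists were chosen with earlier results of these data known, so list counts and medians carry no p. All members are named; of the wider list, genes past the threshold and otherwise the 2 of each sub-list with the smallest p; Kdm1a; and markers past the threshold. Alternatives covered scaling, offset, detection filter, probe choice, replicate block and each array left out.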

Additional observations from a re-analysis of the deposited data

How the results depend on the processing

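No cell cycle gene and no gene of the wider list passed the threshold under any alternative run; the smallest adjusted p of a member ran from 0.106 with the replicate block to 0.420 without Lox/Δ3 replicate 1 (limma). The count over all genes, 140, was 261 with median scaling, 111 with cyclic loess, 199 in the authors' values, 157 with an offset of 50, 24 with no detection filter, 80 with detection on all 6 arrays, 149 with the mean of a gene's probes and 141 with the adjustment over every probe. With 1 array left out it ran from 0 to 275: 0 without any one Δ3/Δ3 array (1551, 1798 and 1600 genes at an unadjusted p under 0.05), and 45, 63 and 275 without Lox/Δ3 replicates 1, 2 and 3. The causes were not tested. Kdm1a kept its direction, -1.65 to -1.46, with adjusted p-values of 0.0744 to 0.0939 without a Δ3/Δ3 array (limma). With the replicate number as a block 373 genes were called, 0 of them members. The deviations of same-numbered arrays from their genotype means correlated at 0.358, 0.0668 and 0.402. Those of Δ3/Δ3 replicate 2 correlated best with those of Lox/Δ3 replicate 3 (0.132), so the numbers were not taken to pair the samples.

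Median scaling set the median of all genes at -0.10, against -0.025. The list median was -0.17 with median scaling, -0.15 in the authors' values and -0.10 to -0.041 with 1 array left out; less the median of all genes it was -0.069, -0.078 and, at its nearest to 0, -0.014 without Δ3/Δ3 replicate 1. Phase medians with median scaling and in the authors' values were -0.18 and -0.15 (G1/S), -0.14 and -0.11 (licensing), and -0.33 and -0.30 (mitotic). The authors' values gave -0.19 for S/G2 and 0.26 for the inhibitors; S/G2 was -0.22 with an offset of 50 and -0.20 with no filter. Without 1 array the ranges were -0.12 to 0.0033 (G1/S), -0.059 to 0.0030 (licensing), -0.38 to -0.14 (S/G2) and 0.24 to 0.46 (inhibitors).

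Signs turned with median scaling for Ccnd1 (-0.12), Cdk4 (-0.016), Mcm6 (-0.10), Mcm10 (-0.028), Pcna (-0.013), Gmnn (-0.033), Cdk1 (-0.036) and Mad2l1 (-0.051); in the authors' values for Ccnd1 (-0.10), Mcm6 (-0.076), Mcm10 (-0.0057), Gmnn (-0.016), Cdk1 (-0.013) and Mad2l1 (-0.028); with cyclic loess for Cdk2 (0.0043) and Mcm3 (0.0020); and with the mean of probes for Ccnd1 (-0.052), Mcm6 (-0.0056), Mcm7 (0.062) and Top2a (0.069). With 1 array left out, signs turned within -0.21 to 0.14 (Ccnd1), -0.0068 to 0.19 (Ccne2), -0.086 to 0.050 (Cdk2), -0.41 to 0.013 (E2f2), -0.051 to 0.024 (Mcm3), -0.17 to 0.032 (Mcm4), -0.093 to 0.14 (Mcm6), -0.057 to 0.026 (Mcm7), -0.071 to 0.17 (Mcm10), -0.24 to 0.037 (Cdc6), -0.059 to 0.013 (Cdt1), -0.042 to 0.074 (Gmnn), -0.0032 to 0.16 (Cdk1) and -0.034 to 0.14 (Mad2l1).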
